A study of Homo sapiens with 6 samples.

Results

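The 10 genes described here encode proteins that fold or discard proteins in the endoplasmic reticulum (ER), and were taken by name from a gene-level read count table: XBP1, HSPA5, HSP90B1, DNAJB9, SDF2L1, PDIA4, HERPUD1, SEL1L, SYVN1 and EDEM1. All 10 were found among the 25330 gene symbols counted, and all 10 were among the 14199 genes with enough counts to be tested. The table holds 6 libraries of MDA-MB-231, an established line of human triple-negative breast cancer cells. Of these, 3 carry the genotype label CTRV2 control and 3 the label RNASEH2A KO, with RN1 in their titles, a knockout of the gene for the catalytic subunit of RNase H2, which takes ribonucleotides out of DNA and cuts RNA in RNA-DNA hybrids. No treatment was given to either group. The 3 libraries of a group came from different passages, and the sources used here do not give whether a group is 1 clone or a pool, or what CTRV2 stands for. All p-values therefore measure the spread between passages.

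Proteins that enter the secretory pathway fold in the ER lumen with the help of chaperones and of enzymes that form disulfide bonds. When unfolded proteins build up, the sensors IRE1, PERK and ATF6 start the unfolded protein response, in which IRE1 splices the mRNA of XBP1 and ATF6 is released as a transcription factor, and both factors raise chaperone and degradation genes. Proteins that fail to fold are sent back to the cytosol through the SEL1L and HRD1 complex and destroyed by the proteasome, a route called ER-associated degradation. Cells with a heavy secretory load are known to rely on this system.

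Library totals ran from 25419877 to 31596286 counts. RNASEH2A (chromosome 19, 12806584 to 12813640) had 10, 6 and 15 counts in the control libraries and 7, 8 and 16 in those labelled knockout, so its count does not check the labels, and exons of the same-strand gene THSD8 cover 40.8% of its principal transcript. The direction of every difference rests on the genotype labels. Control replicate 1 and knockout replicate 1 each stood apart from the other libraries of their group. A chi-square statistic over genes was 10.8 and 12.1 per degree of freedom between control replicate 1 and the others, against 2.48 between controls 2 and 3. It was 24.0 and 37.1 for knockout replicate 1, against 6.95 between knockouts 2 and 3. Between a control and a knockout library it ran from 26.5 to 40.1. Knockout replicate 1 was nearer to control replicate 1 (29.3) than to knockout replicate 2 (37.1). VIM, CD44, AXL and MSN are mesenchymal genes that mark this line. They summed to 4600 to 5080 CPM (counts scaled by library size) in controls and 4300 to 4850 in knockouts. Of 5 hormone receptor and epithelial genes listed as low in this line, ESR1, the oestrogen receptor gene, was at 0 in all 6 libraries. PGR had 0, 2 and 0 counts in controls and 10, 12 and 8 in knockouts. ERBB2 was not low, at a mean of 115.8 CPM in controls and 120.1 in knockouts. Mean EPCAM was 15.13 and 19.35 CPM, and mean CDH1 1.499 and 0.7721 CPM. Of 5 leukocyte markers 3 were in the table, at a summed 2.59 to 4.98 CPM. Of 6 fibroblast and endothelial markers 5 were in the table, at a summed 11.4 to 12.6 CPM in controls and 5.86 to 10.2 in knockouts.

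Sequences just before the start of 6 of the genes are shown because the response elements of the unfolded protein response are found there. The ER stress response element (ERSE) was searched as CCAAT, any 9 bases, then CCACG, and ERSE-II as ATTGG, any 1 base, then CCACG, each on both strands. Their fixed letters are in capitals, and read on the opposite strand they appear as CGTGG and ATTGG, or as CGTGG and CCAAT. Sequences are from RefSeq (GRCh38.p14), 5′ to 3′ along the gene, and end at the base before the start.
XBP1 (chr22:28800570-28800719, minus strand): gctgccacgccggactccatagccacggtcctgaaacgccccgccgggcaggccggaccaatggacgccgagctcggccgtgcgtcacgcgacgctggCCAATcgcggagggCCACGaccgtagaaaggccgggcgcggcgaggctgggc
HSPA5 (chr9:125241344-125241493, minus strand): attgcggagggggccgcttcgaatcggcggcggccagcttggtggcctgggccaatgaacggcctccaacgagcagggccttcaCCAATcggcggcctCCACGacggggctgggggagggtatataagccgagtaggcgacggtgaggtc
HSP90B1 (chr12:103930160-103930409, plus strand): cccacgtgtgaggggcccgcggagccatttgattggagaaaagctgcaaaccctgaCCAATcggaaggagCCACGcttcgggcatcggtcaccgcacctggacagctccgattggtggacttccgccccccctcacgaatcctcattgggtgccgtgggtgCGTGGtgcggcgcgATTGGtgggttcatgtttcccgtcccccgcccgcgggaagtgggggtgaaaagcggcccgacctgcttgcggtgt
SDF2L1 (chr22:21642052-21642301, plus strand): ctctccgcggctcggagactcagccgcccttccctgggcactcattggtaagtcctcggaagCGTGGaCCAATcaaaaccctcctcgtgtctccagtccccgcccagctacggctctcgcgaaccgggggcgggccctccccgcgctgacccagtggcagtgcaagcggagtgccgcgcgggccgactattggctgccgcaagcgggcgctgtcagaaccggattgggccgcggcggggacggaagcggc
HERPUD1 (chr16:56931992-56932141, plus strand): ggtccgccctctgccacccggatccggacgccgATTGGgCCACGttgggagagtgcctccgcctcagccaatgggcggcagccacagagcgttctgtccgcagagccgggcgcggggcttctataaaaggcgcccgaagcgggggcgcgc
SEL1L (chr14:81533854-81534003, minus strand): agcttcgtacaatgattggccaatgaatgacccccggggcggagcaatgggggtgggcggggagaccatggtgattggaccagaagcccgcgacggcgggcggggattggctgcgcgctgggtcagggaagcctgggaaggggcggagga

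Exact ERSE matches lay in the promoter entries of XBP1 (-52 to -34 from the start), HSPA5 (-66 to -48) and HSP90B1, which held 2 of them (-194 to -176, and -89 to -71 on the opposite strand). Exact ERSE-II matches lay in HERPUD1 (-117 to -107) and in SDF2L1 (-188 to -178, opposite strand). Of 27305 promoter entries, each 250 bases before to 50 after a start and 1 per gene symbol, 22 (0.0806%) held an ERSE and 15 (0.0549%) an ERSE-II. The other 5 genes, SEL1L, SYVN1, DNAJB9, PDIA4 and EDEM1, held neither, and SEL1L is printed for comparison. XBP1 and PDIA4 have a second promoter entry, and neither second entry held a match. No member held TGACGTGG, the UPRE motif bound by XBP1, which 0.795% of entries hold. CCACG alone, which is also the last part of both longer motifs, was in the entries of all 10 genes and in 37.9% of all entries, and ATTGG in ERSE-II is CCAAT read on the other strand. A match describes these letters only, and inexact copies were not searched. The 5 genes with a match had log2 fold changes between knockout and control of 0.05 (XBP1), 0.11 (HSPA5), 0.30 (HSP90B1), 0.50 (SDF2L1) and 0.68 (HERPUD1). The 5 without one had 0.09 (DNAJB9), 0.22 (EDEM1), 0.27 (SEL1L), 0.27 (SYVN1) and 0.32 (PDIA4). The 2 genes with an ERSE-II had the largest values, and the 3 with an ERSE ran from 0.05 to 0.30. Whether a match goes with the size of the fold change was not tested.

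The 10 genes differed widely in level. Per kilobase of principal transcript, control levels ran from 311 CPM per kb for HSPA5, the ER Hsp70 known as BiP, to 8.02 CPM per kb for its co-chaperone DNAJB9. HSP90B1, the ER Hsp90 known as GRP94, was at 267 CPM per kb and its 3 control values overlapped those of HSPA5. PDIA4, a protein disulfide isomerase, followed at 168 CPM per kb, apart from its neighbours in the order. XBP1 (48.7 CPM per kb), SDF2L1 (43.9) and SYVN1 (35.0) formed a middle group in which each overlapped the next. SEL1L (20.1), EDEM1 (18.1) and HERPUD1 (15.9) did not overlap one another or DNAJB9. The 3 abundant chaperones thus stood above all 4 degradation genes.

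In the knockout libraries 3 of the 10 genes rose, 0 fell and 7 did not pass. The risers were HERPUD1 and SEL1L of the degradation machinery and the chaperone HSP90B1. Among all tested genes 5.88% rose, 6.22% fell and 12.1% changed in either direction, so that 835 of 14199 rises stand beside 3 of 10. All 10 log2 fold changes were above 0, from 0.05 to 0.68 with a median of 0.27, where 50.6% of all tested genes were above 0 and their median was 0.00. The 10 genes were chosen with earlier results of these data known, so neither comparison with all tested genes is a test. At an unadjusted edgeR p under 0.05 there were 6 rises and 0 falls. This level is loose. The largest of these 6 p, that of PDIA4 (0.0463), ranked only 3819 among the 14199 tested genes, both directions together. DESeq2 called 5 rises and limma-voom 3, each with 0 falls, where 7.61% and 5.67% of all tested genes rose. Knockout values were all above control values for 4 of the 10 genes, the 3 risers and SYVN1, and for 16.1% of all tested genes. Tests are edgeR's quasi-likelihood test with Benjamini-Hochberg adjustment over all 14199 genes, and a gene that passed has an adjusted p under 0.05. HERPUD1 alone passed without control replicate 1, 2 or 3 or knockout replicate 3, where 1.8% to 3.38% of all tested genes rose. Without knockout replicate 1, 6 of the 10 rose, and the share of all genes that rose went up too, to 11.3% (1629 genes). Without knockout replicate 2, 4 of the 10 rose and 5.13% of all genes did. In such bulk libraries a change in the share of cells that express a gene and a change in RNA per cell cannot be told apart.

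**Figure D1:**
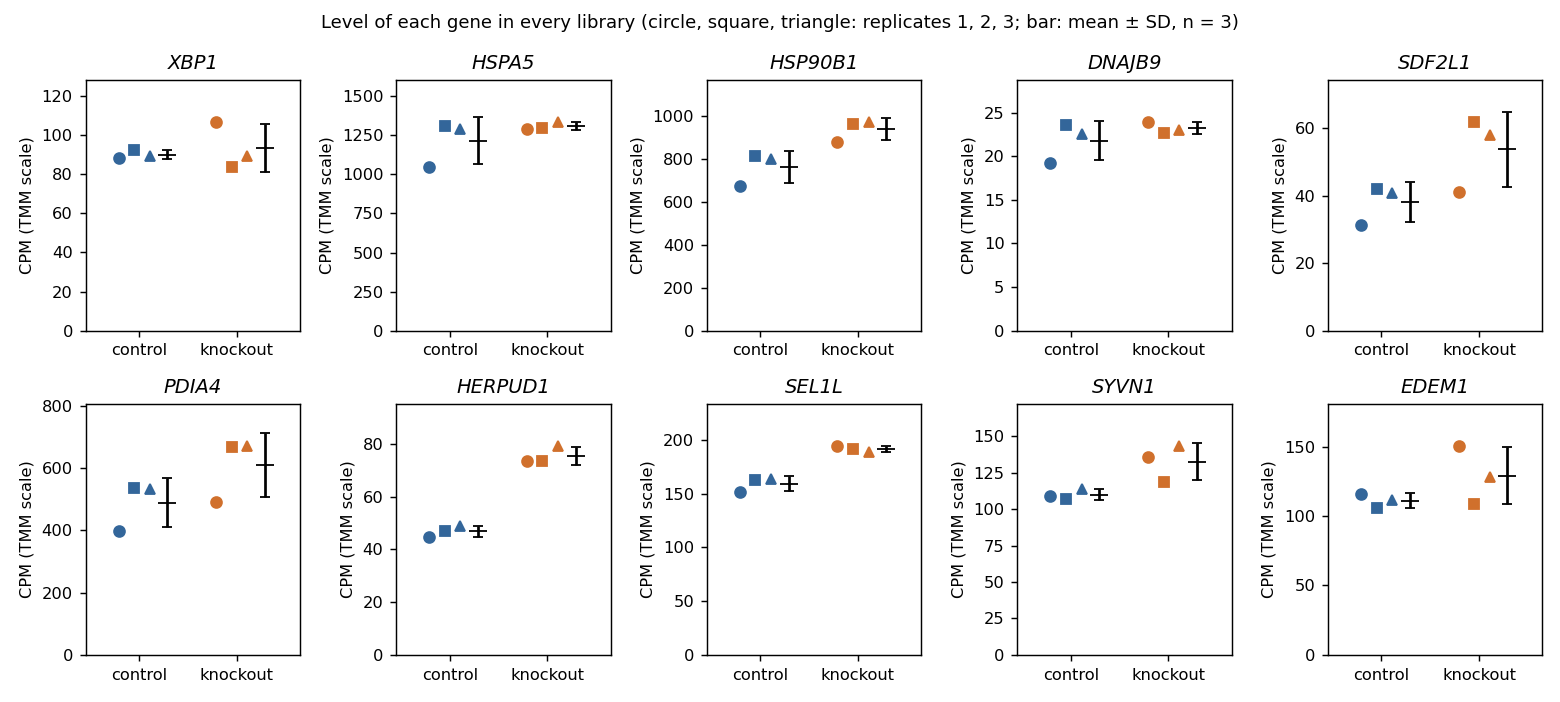
Level of each of the 10 genes in CPM on the TMM scale (vertical axis, starting at 0) in the 3 control and 3 knockout libraries, with replicates 1, 2 and 3 as circle, square and triangle and the mean ± SD (n = 3) beside them. The groups do not overlap for HERPUD1, SEL1L, HSP90B1 and SYVN1, and control replicate 1 is the lowest library for HSPA5, HSP90B1, DNAJB9, SDF2L1, PDIA4, HERPUD1 and SEL1L.

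HERPUD1 had the largest difference. It encodes an ER membrane protein with a ubiquitin-like domain that helps assemble the HRD1 complex, and is itself a classic target of the unfolded protein response. It was at 44.7, 47.1 and 48.7 CPM in controls and at 73.4, 73.3 and 79.2 CPM in knockouts. The 2 groups were far apart and each was narrow. The means were 46.8 ± 2.02 and 75.3 ± 3.39 CPM (SD, n = 3), a rise of 0.68 ± 0.07 (SE) on the log2 scale or 1.61-fold (edgeR adjusted p = 0.000726). It ranked 67 by p-value among all tested genes and passed under all 15 alternatives, with an adjusted p of at most 0.00896.

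HERPUD1 lies on chromosome 16 (56932142 to 56944864, plus strand), and its neighbours were raised as well. Of the 40 nearest tested genes, 20 on each side and spanning 4.56 Mb, 31 had a log2 fold change above 0, 11 rose and 0 fell, and their median log2 fold change was 0.23. A larger fold change than that of HERPUD1 was seen in 3 of the 40. With the neighbour median subtracted HERPUD1 was at 0.45 ± 0.07 (adjusted p = 0.00603).

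SEL1L, the adaptor that holds HRD1 to its substrates, was at 151, 163 and 163 CPM in controls and 194, 191 and 189 CPM in knockouts. The knockout libraries were nearly equal and all above the controls. SEL1L rose by 0.27 ± 0.06 on the log2 scale (159 ± 7.02 to 191 ± 2.96 CPM, SD, n = 3, edgeR adjusted p = 0.0211). The call was lost without control replicate 1 (adjusted p = 0.0744), 2 (0.0846) or 3 (0.0843) or knockout replicate 3 (0.0792). On chromosome 14 (81471547 to 81533853) its 40 neighbours had a median of 0.07, with 7 higher and 1 lower, and with this median subtracted SEL1L did not pass (0.19, adjusted p = 0.0938).

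SYVN1 encodes HRD1, the ubiquitin ligase at the centre of this complex. It was at 109, 107 and 114 CPM in controls and 136, 119 and 144 CPM in knockouts. The groups were apart, but the knockout libraries spread more than the controls. The difference of 0.27 ± 0.08 on the log2 scale did not pass in edgeR (adjusted p = 0.0556). It passed under 5 of 15 alternatives, DESeq2 (0.025) among them. The 40 neighbours of SYVN1 on chromosome 11 had a median of 0.11. The log2 ratio of SEL1L to SYVN1 was 0.53 ± 0.07 in controls and 0.53 ± 0.15 in knockouts (SD, n = 3), whereas that of HERPUD1 to SEL1L was -1.76 ± 0.02 and -1.35 ± 0.08. These ratios are descriptions with no test.

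EDEM1, a mannosidase-like protein that picks out misfolded glycoproteins, was at 116, 106 and 112 CPM in controls and 151, 109 and 128 CPM in knockouts. Knockout replicate 2 lay within the control range and knockout replicate 1 was far above it. The difference was 0.22 ± 0.11 (edgeR adjusted p = 0.223, 95% interval -0.08 to 0.51), and it passed only without knockout replicate 2 (0.33, adjusted p = 0.0455). In GENCODE 29, 10.2% of the principal EDEM1 transcript overlaps exons of AC026202.3 on the opposite strand, and 2.86% of that of SYVN1 overlaps MRPL49. The sources used here do not give the strand setting of the counting.

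Among the lumenal chaperones only HSP90B1 passed in edgeR. GRP94 is needed to fold integrins and other surface receptors. HSP90B1 was at 677, 814 and 801 CPM in controls and 879, 966 and 975 CPM in knockouts. The groups were apart, with replicate 1 the lowest of each. It rose by 0.30 ± 0.08 on the log2 scale or 1.23-fold (764 ± 75.9 to 940 ± 53.0 CPM, SD, n = 3, adjusted p = 0.039). The call was lost without control replicate 1 (adjusted p = 0.0929), 2 (0.0771) or 3 (0.0977) or knockout replicate 2 (0.0819) or 3 (0.161), and was kept with the neighbour median of -0.05 on chromosome 12 subtracted (0.35, adjusted p = 0.0301).

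HSPA5 encodes BiP, which binds the stress sensors and keeps them inactive, and its mRNA is the usual readout of the response. It was at 1045, 1313 and 1291 CPM in controls and 1292, 1298 and 1339 CPM in knockouts. The knockout libraries lay in a narrow range at the level of control replicates 2 and 3, and control replicate 1 alone was low. The difference of 0.11 ± 0.08 did not pass (adjusted p = 0.451, 95% interval -0.13 to 0.34), and without control replicate 1 it was 0.01. DNAJB9, which brings BiP to IRE1, likewise was low in control replicate 1 alone, at 19.2, 23.6 and 22.5 CPM in controls and 24.0, 22.6 and 23.0 CPM in knockouts (0.09 ± 0.10, adjusted p = 0.595, interval -0.18 to 0.37). For DNAJB9, 6.74% of the principal transcript overlaps exons of PNPLA8 and THAP5 on the opposite strand.

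SDF2L1, a partner of BiP and its co-chaperones, had the second largest fold change of the 10 but a wide spread. It was at 31.2, 42.0 and 40.9 CPM in controls and 41.2, 62.0 and 58.0 CPM in knockouts. Knockout replicates 2 and 3 were above every control, and knockout replicate 1 was at the level of controls 2 and 3. The difference was 0.50 ± 0.16 (edgeR adjusted p = 0.0729). It passed in DESeq2 (0.0188) and without knockout replicate 1 (0.66, adjusted p = 0.00157). It also passed with no filter on low counts (0.00217) and with the replicate number as a block (0.000655). PDIA4 was at 399, 537 and 531 CPM in controls and 492, 667 and 671 CPM in knockouts. Here too knockout replicates 2 and 3 were above every control, and knockout replicate 1 was below controls 2 and 3. The PDIA4 difference of 0.32 ± 0.14 did not pass in edgeR (adjusted p = 0.172, unadjusted p = 0.0463). Its interval on 4 degrees of freedom, -0.07 to 0.71, is wider than this unadjusted p implies. It passed without knockout replicate 1 (0.45, adjusted p = 0.00754), with no filter on low counts (0.0146) and with the replicate number as a block (0.00144).

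XBP1, the transcription factor of the IRE1 branch, was at 88.3, 92.6 and 89.6 CPM in controls and 107, 83.8 and 89.7 CPM in knockouts. Knockout replicate 1 was the highest of all 6 libraries and knockout replicate 2 the lowest. The difference was 0.05 ± 0.09 (adjusted p = 0.752, interval -0.20 to 0.31), and -0.06 without knockout replicate 1. Gene counts add the spliced and unspliced forms of XBP1 mRNA, so they do not show splicing.

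**Figure D2:**
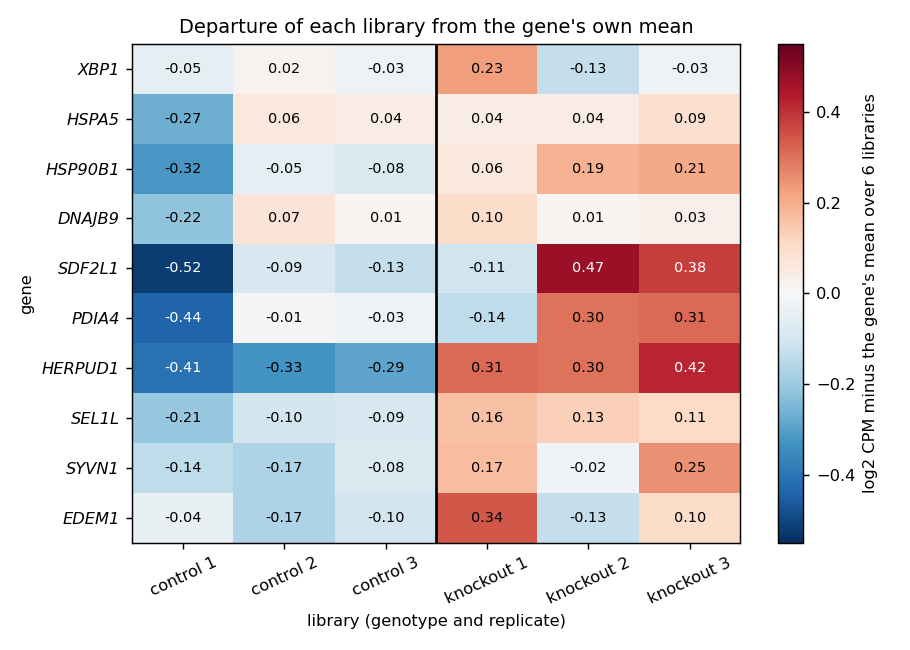
Departure of each library from the gene's mean log2 CPM over 6 libraries (colour and printed value), with genes in rows and libraries in columns and a line between control and knockout. HERPUD1, SEL1L and HSP90B1 change sign exactly at the line, whereas SDF2L1 and PDIA4 are also below their mean in knockout replicate 1 (-0.11 and -0.14) and XBP1 and EDEM1 are highest there (0.23 and 0.34).

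Within the groups, replicate 1 differed from the other libraries in some of the genes. Control replicate 1 was below the mean of controls 2 and 3 in log2 CPM for all 5 lumenal chaperone and folding genes (HSPA5 -0.32, HSP90B1 -0.26, DNAJB9 -0.26, SDF2L1 -0.41 and PDIA4 -0.42), and differed by -0.11 to 0.10 for XBP1 and the 4 degradation genes. Of all tested genes 49.4% were lower in control replicate 1. The lumenal genes did not move together in the knockouts. Knockout replicate 1 was below knockouts 2 and 3 for SDF2L1 (-0.54) and PDIA4 (-0.44) near them for HSPA5 (-0.03), DNAJB9 (0.07) and HSP90B1 (-0.14), and above them for XBP1 (0.31) and EDEM1 (0.35). Of all tested genes 49.5% were lower there. Over all tested genes the 5th and 95th percentiles were -0.47 and 0.52 for control replicate 1 and -0.52 and 0.76 for knockout replicate 1, so all of these values but that of SDF2L1 in knockout replicate 1 lay inside them. These are differences between passages that carry the same label. The part of the passage in the group differences of SDF2L1 and PDIA4 was not tested.

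**Figure D3:**
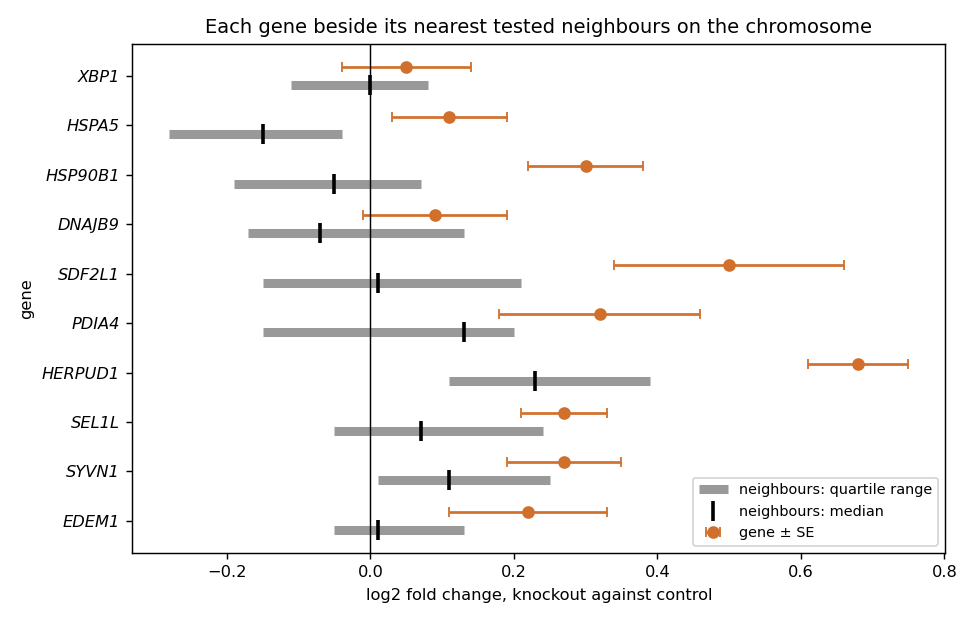
Log2 fold change of each gene ± SE (circles) above the quartile range (grey bars) and median (black ticks) of its nearest tested neighbours on the chromosome, 40 for each gene but EDEM1, which has 28. HERPUD1 at 0.68 is above the quartile range of its neighbours (0.11 to 0.39), as most of the genes are. That range is itself above 0 (median 0.23), whereas HSPA5 at 0.11 has neighbours with a median of -0.15.

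HSPA5 stood among lowered neighbours. Of the 40 nearest tested genes on chromosome 9, 7 fell and 1 rose, with a median of -0.15, and with this subtracted HSPA5 was at 0.26 ± 0.08 (adjusted p = 0.0989). The neighbour medians of the genes other than HERPUD1 and HSPA5 ran from -0.07 for DNAJB9 to 0.13 for PDIA4, and PDIA4 less its neighbours was at 0.19 (adjusted p = 0.456).

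**Figure D4:**
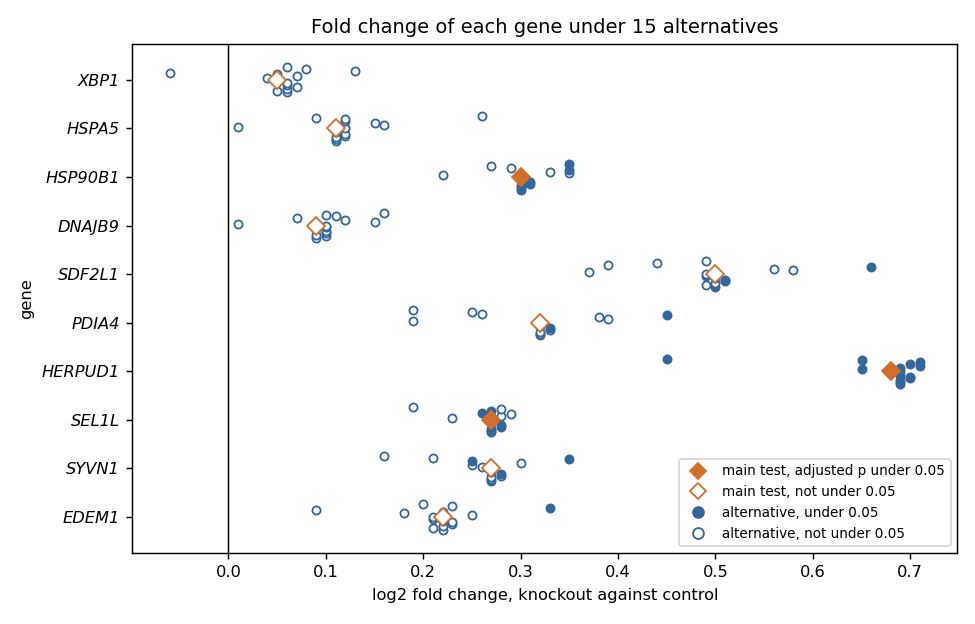
Log2 fold change of each gene in the main test (diamonds) and under 15 alternatives (circles), filled where the adjusted p was under 0.05. All HERPUD1 marks are filled, 10 of 15 alternatives are filled for HSP90B1 and for SEL1L, and 0 of 15 for HSPA5, DNAJB9 and XBP1.

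The other genes of the system were read from 7 lists of 120 genes, all of which were tested. Of these 8 rose, 4 fell and 108 did not pass, with a median log2 fold change of 0.07, and 10.0% changed where 12.1% of all genes did. Among 13 sensors and transcription factors 2 rose and 1 fell (median 0.03). CREB3L2, an ER-bound transcription factor related to ATF6, rose by 0.37 ± 0.06 (338 ± 6.81 to 435 ± 14.8 CPM, adjusted p = 0.00392) and ATF6B by 0.30 ± 0.07 (adjusted p = 0.0182). ATF6 itself fell, by 0.26 ± 0.07 on the log2 scale (117 ± 6.81 to 98.3 ± 1.75 CPM, adjusted p = 0.0352), and lies on chromosome 1 among neighbours with a median of -0.20, without which it was at -0.05 (adjusted p = 0.677). ATF6B less its neighbours, whose median was 0.14, did not pass either (0.16, adjusted p = 0.184). CREB3L2 less its neighbours did (0.40, adjusted p = 0.00342).

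Of 26 other chaperones and folding enzymes 21 had a log2 fold change above 0 (median 0.11), where 50.6% of all tested genes did. Of the 26, 1 (3.85%) rose and 1 fell, where 5.88% of all tested genes rose and 6.22% fell. The riser was MANF, a secreted ER stress protein, by 0.39 ± 0.08 (75.6 ± 5.69 to 98.7 ± 6.60 CPM, adjusted p = 0.0149). FKBP14, a prolyl isomerase for collagen, fell by 0.63 ± 0.13 on the log2 scale (adjusted p = 0.0164). Less their neighbours, MANF (0.36, adjusted p = 0.0285) and FKBP14 (-0.59, adjusted p = 0.0318) still passed. Of 29 other degradation genes 2 rose and 0 fell, with a median of 0.02. These were the lectins ERLEC1 (0.27 ± 0.07, adjusted p = 0.0337) and OS9 (0.29 ± 0.08, adjusted p = 0.0374), which hand glycoproteins to SEL1L. ERLEC1 less its neighbours did not pass (0.21, adjusted p = 0.105), and OS9 did (0.42, adjusted p = 0.0117). In this list 5 were higher and 3 lower at an unadjusted p under 0.05, which at least 3819 of all 14199 tested genes reached. DESeq2 called 3 higher and 1 lower, and limma-voom 3 and 0.

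None of 17 translocon and signal peptidase genes was called by edgeR, by DESeq2 or by limma-voom, and 0 had an unadjusted edgeR p under 0.05. The smallest p there was that of SRPRB, a signal recognition particle receptor subunit (49.4 ± 4.12 and 39.0 ± 9.19 CPM, -0.34 ± 0.16, adjusted p = 0.191). Of 16 ER to Golgi genes MCFD2, a cargo receptor subunit, rose by 0.32 ± 0.07 (adjusted p = 0.0184) and 0 fell. DESeq2 and limma-voom each called 1 higher and 0 lower. At an unadjusted p under 0.05, which at least 3819 of all 14199 tested genes reached, 3 were higher and 0 lower. MCFD2 less its neighbours did not pass (adjusted p = 0.0743). Of 7 ER-phagy receptors none passed in edgeR, 1 was lower at an unadjusted p under 0.05, and DESeq2 and limma-voom each called that 1. It was RETREG1, with only 20, 16 and 12 counts in controls and 8, 0 and 0 in knockouts (edgeR adjusted p = 0.0686), where a count of 0 allows up to 3 counts.

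In the list of PERK and ATF4 targets 2 of 13 rose and 2 fell (median 0.08). PPP1R15A, which restarts translation after stress, rose by 0.48 ± 0.11 (132 ± 6.20 to 183 ± 30.2 CPM, adjusted p = 0.0223) and the lipoprotein receptor VLDLR by 0.47 ± 0.13 (adjusted p = 0.04). The serine synthesis enzyme PSAT1 and the pseudokinase TRIB3 fell, by 0.51 ± 0.11 and 0.64 ± 0.14 on the log2 scale. With neighbour medians subtracted PPP1R15A (0.35, adjusted p = 0.0919) and TRIB3 (-0.31, adjusted p = 0.232, neighbour median -0.33) did not pass. VLDLR (0.55, adjusted p = 0.0313) and PSAT1 (-0.47, adjusted p = 0.0325) did. Over the 7 lists there were 2 rises and 2 falls without control replicate 1, 2 and 0 without control replicate 2, 1 and 0 without control replicate 3, 25 and 8 without knockout replicate 1, 6 and 2 without knockout replicate 2, and 1 and 2 without knockout replicate 3. Over all genes the rises numbered 1629 without knockout replicate 1 and 261 to 745 without any other library.

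**Figure D5:**
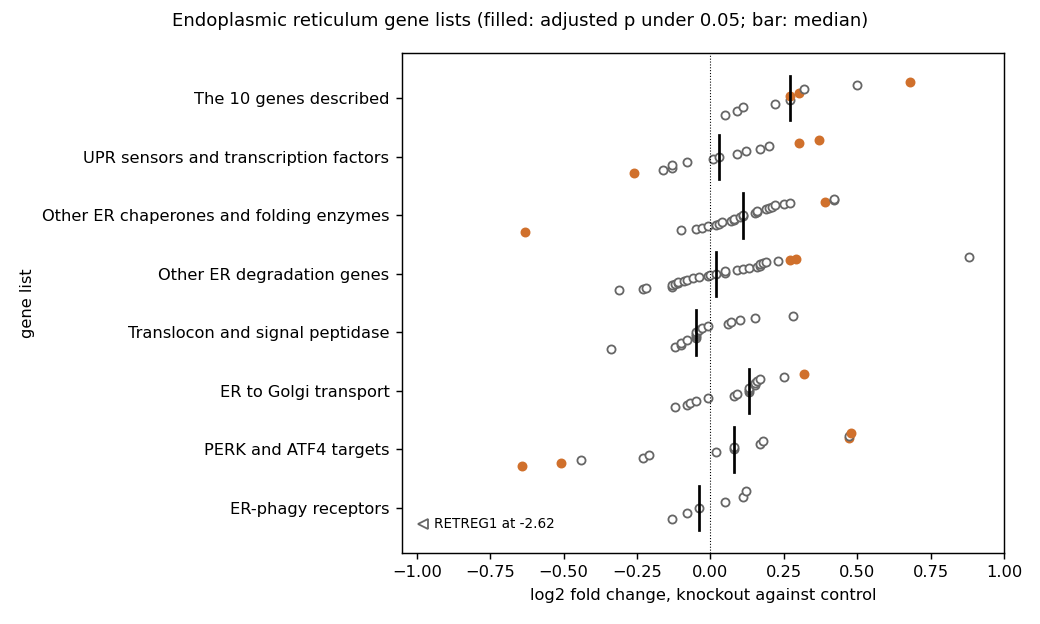
Log2 fold change of the 10 genes and of 7 lists of ER genes (1 circle per gene, filled where the edgeR adjusted p was under 0.05, with a bar at the median). The bar of the 10 genes is at 0.27 and those of the lists lie between -0.05 and 0.13, and RETREG1, an open triangle at the edge, has a fitted value of -2.62 from very few counts.

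The genes whose library pattern was most like that of HERPUD1, among 9282 genes of at least 10 CPM on average over the 6 libraries, were GLRX, IFI27, GRN, SOD3 and SPN, with Pearson r of log2 CPM from 0.9963 to 0.9994. GRN, the gene of the secreted protein progranulin, was at 480, 513 and 510 CPM in controls and 680, 672 and 731 CPM in knockouts. For HSPA5, with the group means subtracted, they were FADS1, CD274, SLC29A3, BPHL and CD81, with r from 0.9956 to 0.9985. FADS1, a fatty acid desaturase of the ER, was at 204, 276 and 270 CPM in controls and 280, 283 and 299 CPM in knockouts, low in control replicate 1 alone as HSPA5 was. The r are over 6 libraries of 2 genotypes and serve only to rank genes.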

How the data were processed

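Poly-A enriched, strand-specific libraries of 3 control and 3 knockout passages were made, per the labels' protocols, and all carry 1 batch label. The submitters' processing notes name FastQC, STAR version 2 and GRCh38. The sources used here do not give how reads were counted, with which strand setting or on which annotation. The deposited table holds raw whole-number counts per gene symbol, per the file headers and values. A second deposited table holds the authors' log2 CPM values, with an unstated filter and prior count, and served for 1 alternative. A total count of 25419877 to 31596286 per library limits a count of 0 to at most 0.118 CPM, for counting error only.

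Counts were tested with edgeR 4.0.16 in R 4.3.3 (filterByExpr, TMM, quasi-likelihood F test, two-sided, no covariate), adjusted by Benjamini-Hochberg over 14199 genes. Groups came from the genotype label and replicate numbers from the titles. Levels are CPM on the TMM scale. The SE is the log2 fold change divided by the root of F, and 95% intervals use it with 4 residual degrees of freedom. The quasi-likelihood test also borrows information across genes, so these intervals are wider than its unadjusted p-values imply. The code was tested on simulated data. No pair of libraries agreed within counting noise (chi-square of at least 2.48 per degree of freedom), so all were kept. Alternatives were DESeq2 1.42.0, limma-voom (limma 3.58.1), RLE factors, library size only, no filter on low counts, a minimum mean of 1 CPM, a replicate block, limma on the log2 CPM table, each library left out, and the neighbour median as an offset.

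Positions are from RefSeq (GRCh38.p14), which matched 25112 of 25330 symbols, and transcript lengths and overlaps from GENCODE 29. Neighbours are the 20 nearest tested genes on each side. The genes named are the 10 members, RNASEH2A, up to 3 genes per list and direction that passed with the smallest p (or the 1 with the smallest p where none passed), and the 5 genes most like HSPA5 and HERPUD1. The members and lists were chosen with earlier results of these data known, and no list was tested as a set. Protein sequences were not used here.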

Additional observations from a re-analysis of the deposited data

How the results depend on the processing

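Of the 10 genes, HERPUD1 kept its call under all 15 alternatives, with log2 fold changes from 0.45 to 0.71, and 9 kept a positive fold change throughout, the exception being XBP1, which ran from -0.06 without knockout replicate 1 to 0.13 without knockout replicate 2. The number of the 10 that rose was 5 with DESeq2 and 6 with no filter on low counts, against 3 in the main test, and it ran from 1 to 6 as each library was left out. The share of all tested genes that rose was 7.61% with DESeq2, 5.3% with no filter, 11.3% without knockout replicate 1 and 1.8% to 5.13% without any other library, against 5.88%. Over all genes 835 rises and 883 falls became 499 and 483 with the neighbour median subtracted, and ranged from 261 to 1629 and from 263 to 1801 as each library was left out. For the 7 lists, 8 rises and 4 falls ranged from 1 to 25 and from 0 to 8 as each library was left out. With the neighbour median subtracted there were 7 rises and 2 falls. The number of members holding an ERSE was 3 in either promoter window. With the replicate number as a block, 6 of the 10 genes rose, 1506 (10.6%) and 1593 of all genes rose and fell, and 16 and 10 of the list genes did. The labels do not say that a number marks a shared passage. Deviations of same-numbered libraries correlated at 0.316, 0.139 and 0.086. Control replicate 1 was at -0.243 and -0.154 with the other knockouts and control replicate 2 at -0.183 and 0.091. Control replicate 3 instead correlated best with knockout replicate 2 (0.141). Whether same-numbered libraries share more than a number was not tested. The cause of the shifts in the counts of genes that passed was not tested. The lowest count of a member was 568, that of DNAJB9 in control replicate 3, and the part of depth in which members passed was not tested.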

Other observations

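Apart from the 10 genes, 32 gene symbols had an exact ERSE or ERSE-II in the RefSeq promoter entry, of which 21 were tested. Well-known ER genes among them included the chaperones CALR and CANX, the BiP co-factor HYOU1, the ER protein CRELD2 and the oxidase ERO1B. In edgeR 1 of the 21 rose and 0 fell, where 5.88% of all tested genes rose and 6.22% fell. Of the 21, 13 had a log2 fold change above 0, where 50.6% of all tested genes did. The median of the 21 was 0.10, against 0 for all tested genes. At an unadjusted p under 0.05, which at least 3819 of all 14199 tested genes reached, there were 5 higher and 1 lower. DESeq2 and limma-voom each called 1 higher and 0 lower. The riser was FRG2, named after its values were seen, with 0 counts in each control library and 46, 14 and 18 counts in the knockouts (adjusted p = 0.00719). FRG2 has near-identical relatives, which leaves the origin of these reads uncertain. HYOU1 had the order of libraries seen for PDIA4, at 378, 588 and 566 CPM in controls and 525, 751 and 771 CPM in knockouts (0.42 ± 0.18 SE on the log2 scale, adjusted p = 0.163 in edgeR). CALR was at 1237 ± 135 and 1227 ± 20.4 CPM and CANX at 1973 ± 216 and 2075 ± 146 CPM (SD, n = 3), and neither passed. The set was gathered from sequence after the member results were known and was not tested as a set.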
